A study of Mus musculus with 9 samples.

Results

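Atm, Atr, Chek1, Chek2, Mdc1, Trp53bp1, Brca1, Brca2 and Fancd2 encode proteins that detect DNA damage, halt the cell cycle and direct repair by recombination. The 9 genes were taken by symbol from the 57010 genes of a count table, and 9 of 9 had more than 10 reads in every embryo, as did 13680 genes in all. RNA had been sequenced from the cortex of single mouse embryos at E12.5, from 3 control embryos labelled WT (Ctrl), 3 Cnot3 cKO embryos and 3 Cnot3;Trp53 dcKO embryos. Cnot3 encodes a subunit of CCR4-NOT, the complex that shortens poly(A) tails, and Trp53 encodes the transcription factor p53. In both mutants the floxed alleles were recombined by Emx1-Cre, which acts in radial glia of the dorsal telencephalon and in their progeny, so blood, vessels, meninges and other cells in the tissue keep the genes. The study made the double mutant to ask which effects of losing Cnot3 depend on p53.

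ATM and ATR are the apical kinases of the damage response. ATM answers double-strand breaks and ATR answers single-stranded DNA at stalled forks. They activate the checkpoint kinases CHK2 and CHK1, mark chromatin around breaks for MDC1 and 53BP1, and feed into repair by BRCA1, BRCA2 and FANCD2. Much of this response works by phosphorylation and ubiquitylation of proteins already present, which a count of mRNA does not measure. In the embryonic cortex, radial glia divide rapidly, and p53 is the main route from unrepaired damage to apoptosis.

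Levels are given as CPM, reads of a gene per 1000000 reads of the tested genes after TMM scaling. Fold changes, standard errors (SE) and adjusted p-values come from edgeR's quasi-likelihood test in one model of 9 embryos with Benjamini-Hochberg adjustment over 13680 genes. A gene was called where the adjusted p-value was under 0.05 and the log2 fold change was beyond 1 in either direction. Embryos counted between 21193798 and 45073349 reads, of which 15000 to 43387 fell on the 9 genes. Cnot3 had 117.3, 107 and 98.2 CPM in Ctrl, 15.0, 17.3 and 14.6 in cKO and 7.33, 48.2 and 19.0 in dcKO. Trp53 had 237, 254 and 215 CPM in Ctrl, 167, 164 and 167 in cKO and 15.1, 110.4 and 20.6 in dcKO. Thus dcKO replicate 2 kept more of both targeted transcripts than the other dcKO embryos. Summed CPM of 5 subpallium markers was 6.39 in that embryo and at most 0.367 in the other embryos. The sum of 7 radial glia markers of the cortex itself was 2669 to 3212 CPM, and DESeq2 called 1 of them, Hes5, lower in cKO. That sum holds markers that moved in opposite directions. In cKO 5 of the 7 had a log2 fold change below 0 and 2 above (median -0.29). Wholly below Ctrl lay 4 and wholly above 1, beside 28% and 29.2% of all genes. Hes5, a Notch target named here after its values were seen, had 37.8, 31.0 and 22.0 CPM in Ctrl and 6.75, 7.85 and 10.9 in cKO. The embryo codes carry a further number, whose meaning is not stated, and it is shared by Ctrl replicate 1 and cKO replicate 2, by Ctrl replicate 2 and cKO replicate 3, and by Ctrl replicate 3 and dcKO replicate 3.

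With Cnot3 lost, 8 of the 9 genes had a higher mean in cKO than in Ctrl. With all embryos in the fit, edgeR and DESeq2 called none of the 9 in either mutant. Which of them passed an adjusted p-value of 0.05 depended on the test and the embryos in the fit. In cKO the fold changes ran from -0.05 for Atm to 0.70 for Fancd2, with a median of 0.26, beside a median of 0.01 over all genes tested. In 5 genes, Atr, Trp53bp1, Brca1, Brca2 and Fancd2, every cKO embryo lay above every Ctrl embryo. That pattern was common, since 29.2% of all genes tested lay wholly above Ctrl in the same way. In dcKO, 9 of the 9 genes had a higher mean, with a median log2 fold change of 0.40 beside 0.11 over all genes, but 1 gene, Fancd2, had groups that did not overlap, against 15.6% of all genes. edgeR called 0 of the 9 in cKO, 0 in dcKO and 0 in dcKO against cKO, where it called 0.0146%, 0% and 0.0146% of all genes. DESeq2 also called 0 of the 9 in each comparison, where it called 8.82%, 8.46% and 0.38% of all genes. At an unadjusted edgeR p-value under 0.05, 2 of the 9 were higher in cKO (Trp53bp1 and Fancd2; 15.3% of all genes) and 3 of the 9 in dcKO (Atr, Brca2 and Fancd2; 18% of all genes). In dcKO against cKO the count at that limit was 0, where 2.05% of all genes were higher and 2.38% lower. The genotypes share 1 estimate of the spread in this model, and the edgeR counts moved when single dcKO embryos were left out. Without dcKO replicate 3 edgeR called 3252 genes (23.6%) in dcKO against Ctrl, Atr among them as 1 of the 9. Without dcKO replicate 2 it called 1363 genes (9.81%) there and 0 of the 9. In cKO it called 922, 1174 and 1476 genes (6.71%, 8.45% and 10.7%) without dcKO replicates 1, 2 and 3, and 0 of the 9 each time.

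With no fold limit, limma voom with sample weights gave an adjusted p-value under 0.05 in cKO for 6 of the 9 genes, all higher, beside 27.6% of all genes. They were Fancd2 (adjusted p = 0.000138), Trp53bp1 (0.000298), Brca2 (0.000897), Atr (0.00111), Brca1 (0.0113) and Chek1 (0.0375), where edgeR with all embryos had 0 of the 9. In dcKO voom gave 7 of the 9, without Chek2 and Mdc1, beside 26.5% of all genes higher. The edgeR count in cKO at that limit was 1 of the 9 (Fancd2; 7.23% of all genes higher) without dcKO replicate 1, 2 (Trp53bp1 and Fancd2; 11.2%) without replicate 2 and 3 (Atr, Brca2 and Fancd2; 14.7%) without replicate 3. It was 4 (Atr, Trp53bp1, Brca2 and Fancd2; 23.5%) with only the 6 embryos compared, and 5 (these and Chek1; 21.5%) with the number in the embryo code as a block. It was 0 without any single Ctrl or cKO embryo. DESeq2 gave 1 of the 9 in cKO (Fancd2; 9.6%).

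**Figure D1:**
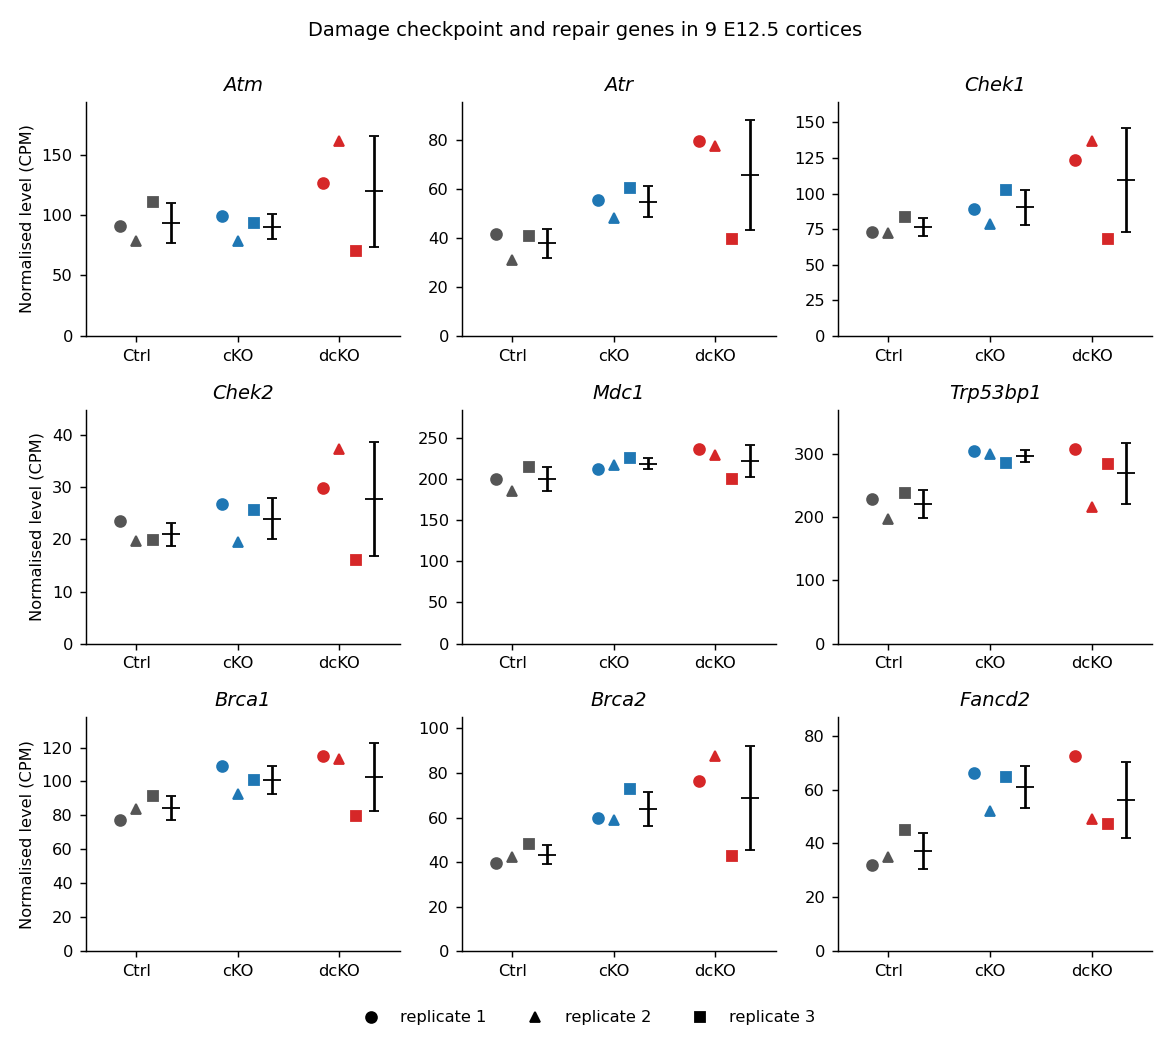
Normalised level (CPM, linear axis from 0) of each of the 9 genes in each embryo, by genotype, with replicates 1, 2 and 3 as circle, triangle and square, and the mean and SD of 3 embryos as a bar. The dcKO embryos spread widely for Atm, Chek1 and Chek2, with replicate 3 below every Ctrl embryo, while Fancd2 lies above Ctrl in 3 of 3 cKO and 3 of 3 dcKO embryos.

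Chek2, Brca2 and Mdc1 share a sequence feature that the choice of genes did not use. E2F factors switch on genes of S phase, and 2 forms of their site, TTTCCCGC and TTTGGCGC, were searched on both strands of RefSeq promoter windows (GRCm38.p6), which run from 250 bases before to 50 after the start of each gene. Windows were found for 8 of the 9 genes, without one for Fancd2. A match stood in 3 of the 8, against 1.6% of 32851 windows and 2.9% of the 12649 windows of tested genes. Part of the bases outside annotated exons, 123, 140 and 86 bases around the match, is shown on the plus strand for Chek2, Brca2 and Mdc1, with the match in capitals, at chr5:110839778-110839900 for Chek2, chr5:150522383-150522522 for Brca2 and chr17:35841412-35841497 for Mdc1.
Chek2: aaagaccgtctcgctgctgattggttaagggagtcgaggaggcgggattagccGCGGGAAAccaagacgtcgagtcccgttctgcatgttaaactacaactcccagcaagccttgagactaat
Brca2: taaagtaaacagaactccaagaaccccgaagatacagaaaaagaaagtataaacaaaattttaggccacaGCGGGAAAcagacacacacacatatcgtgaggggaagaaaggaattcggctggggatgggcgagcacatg
Mdc1: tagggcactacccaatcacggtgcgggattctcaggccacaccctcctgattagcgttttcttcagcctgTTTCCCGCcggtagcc
The same letters, TTTCCCGC, matched in each, on the minus strand for Chek2 and Brca2 and on the plus strand for Mdc1. They began 16 bases before the start in Mdc1, 152 in Chek2 and 168 in Brca2. The Chek2 stretch is part of the gap between Chek2 and Hscb, a gene that runs the opposite way. The GC box GGGCGG was in 4 of the 8 windows (Trp53bp1, Atm, Atr and Mdc1), against 63.5% for tested genes. CCAAT was in 4 of the 8 (Chek2, Atm, Brca1 and Mdc1), against 38.1%. The half-site of the p53 consensus was found in 0 of the 8 windows, against 6.7%. Among these 3 genes the log2 fold change in dcKO was 0.67 for Brca2, 0.40 for Chek2 and 0.15 for Mdc1, without a call and with no test between them.

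Atm and Atr are the apical kinases, and neither was called in a mutant by edgeR or DESeq2 with all embryos in the fit. In dcKO limma voom called Atr (log2 fold change 1.09, adjusted p = 0.000408), as it did 26.8% of all genes. Atm (ENSMUSG00000034218.17, GRCm38 chromosome 9 from 53439149 to 53536740, minus strand) had 91.3, 78.2 and 110.5 CPM in Ctrl, 99.2, 78.8 and 93.4 in cKO and 127, 161 and 70.6 in dcKO. The cKO embryos lay inside the Ctrl range, while the dcKO embryos lay on both sides of it, with 2 above and 1 below. Its mean was 93.3 ± 16.2 CPM in Ctrl, 90.5 ± 10.5 in cKO and 119.6 ± 45.8 in dcKO (SD, n = 3). The log2 fold change was -0.05 (SE 0.27, edgeR adjusted p = 0.93) in cKO and 0.36 (adjusted p = 0.403) in dcKO. Npat, a histone gene coactivator that starts 307 bases away in the opposite direction, had fold changes of 0.19 and 0.55 on the same scale, and neither was called.

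Atr (ENSMUSG00000032409.16, chromosome 9 from 95857597 to 95951781, plus strand) had 41.6, 31.1 and 40.8 CPM in Ctrl, 55.6, 48.1 and 60.5 in cKO and 79.5, 77.4 and 39.6 in dcKO. The cKO embryos lay above the Ctrl embryos without overlap. In dcKO 2 embryos were near 2 times the Ctrl mean, and replicate 3 lay inside the Ctrl range. The log2 fold change was 0.53 (SE 0.27, edgeR adjusted p = 0.226, exact two-sided permutation p = 0.1) in cKO and 0.79 (SE 0.27, adjusted p = 0.0919) in dcKO. An exact p-value of 0.1 is the smallest that 3 embryos against 3 allow, and it applies to each comparison without overlap. Without dcKO replicate 3 the dcKO value was 1.05 (edgeR adjusted p = 0.000782), which is a call, made there for 23.6% of all genes. Without replicate 2 it was 0.65 (adjusted p = 0.135). Antisense RNAs share 726 and 462 exon bases with Atr, and the strand setting of the counting was not stated, so reads from both strands may stand in its count.

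Chek1 and Chek2, which carry the signal from ATR and ATM to the cell cycle, followed the pattern of Atm in dcKO. Chek1 (ENSMUSG00000032113.17, chromosome 9 from 36708482 to 36727065, minus strand) had 73.3, 72.1 and 83.8 CPM in Ctrl, 89.2, 78.8 and 102.8 in cKO and 124, 137 and 68.3 in dcKO. Of the mutants, 2 embryos of each genotype lay above every Ctrl embryo, and dcKO replicate 3 lay below every one. Chek1 had a log2 fold change of 0.24 (SE 0.25, edgeR adjusted p = 0.557) in cKO and 0.52 (adjusted p = 0.188) in dcKO.

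Chek2 (ENSMUSG00000029521.8, chromosome 5 from 110839979 to 110874145, plus strand) had the fewest reads of the 9 genes. It had 23.5, 19.6 and 19.8 CPM in Ctrl, 26.8, 19.5 and 25.7 in cKO and 29.8, 37.4 and 16.02 in dcKO. In each mutant genotype 2 embryos lay above and 1 below the Ctrl range, and the groups overlapped. Chek2 had a log2 fold change of 0.19 (SE 0.30, edgeR adjusted p = 0.712) in cKO and 0.40 (adjusted p = 0.391) in dcKO. Hscb, an iron-sulfur cluster chaperone gene 202 bases away, had fold changes of 0.66 and 0.85 on the log2 scale and was not called in either mutant.

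Mdc1 and Trp53bp1, the chromatin adaptors, had the highest Ctrl levels of the 9 genes per kb of transcript. Mdc1 (ENSMUSG00000061607.16, chromosome 17 from 35841515 to 35859670, plus strand), which binds phosphorylated H2AX beside a break, had 199.6, 185 and 214 CPM in Ctrl, 212, 217 and 225 in cKO and 237, 229 and 199.6 in dcKO. The spread was small, and both mutant groups overlapped Ctrl. Mdc1 had a log2 fold change of 0.13 (SE 0.15, edgeR adjusted p = 0.598) in cKO and 0.15 (adjusted p = 0.498) in dcKO.

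Trp53bp1 (ENSMUSG00000043909.17, chromosome 2 from 121193281 to 121271407, minus strand) encodes 53BP1, which shields broken ends and favours their joining over resection. It had 229, 197 and 238 CPM in Ctrl, 305, 300.3 and 286 in cKO and 309, 216 and 284 in dcKO. The 3 cKO embryos lay close together and above every Ctrl embryo, while dcKO replicate 2 lay inside the Ctrl range. Its mean was 222 ± 22.1 CPM in Ctrl and 297 ± 9.63 in cKO (SD, n = 3), a log2 difference of 0.42 (SE 0.17, edgeR adjusted p = 0.152) that was not called. In dcKO the log2 fold change was 0.28 (adjusted p = 0.296). Trp53bp1 shares 2130 exon bases with Tubgcp4 on the opposite strand, so its count is uncertain by the reads of that gene. Tubgcp4, a subunit of the microtubule nucleating complex, had 28.6 CPM in Ctrl and log2 fold changes of 0.22 in both mutants.

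Brca1 and Brca2 act in repair by homologous recombination, BRCA1 early, in the resection of ends, and BRCA2 in the steps that follow. Brca1 (ENSMUSG00000017146.13, chromosome 11 from 101488764 to 101551955, minus strand) had 77.6, 84.1 and 91.7 CPM in Ctrl, 108.9, 92.8 and 100.8 in cKO and 115, 113 and 79.6 in dcKO. The lowest cKO embryo lay just above the highest Ctrl embryo, so the groups were apart by a narrow gap. Brca1 had a log2 fold change of 0.26 (SE 0.18, edgeR adjusted p = 0.388) in cKO and 0.28 (adjusted p = 0.316) in dcKO. Nbr1, an autophagy receptor gene 194 bases away in the opposite direction, had log2 fold changes of 0.01 and 0.18.

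Brca2 (ENSMUSG00000041147.11, chromosome 5 from 150522630 to 150570329, plus strand) had 39.5, 42.5 and 48.2 CPM in Ctrl, 60.0, 58.9 and 72.6 in cKO and 76.4, 87.5 and 42.8 in dcKO. Every cKO embryo lay above every Ctrl embryo, as did 2 of the 3 dcKO embryos. Brca2 had a log2 fold change of 0.56 (SE 0.25, edgeR adjusted p = 0.188) in cKO and 0.67 (adjusted p = 0.118) in dcKO, and DESeq2 gave adjusted p-values of 0.185 and 0.1. An antisense RNA, Gm42529, shares 41 exon bases with Brca2, to which the same limit on strand applies.

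Fancd2 (ENSMUSG00000034023.17, chromosome 6 from 113531682 to 113597017, plus strand), whose product is ubiquitylated at DNA crosslinks and stalled forks, had the highest fold change of the 9 genes in cKO. It had 32.2, 35.1 and 44.9 CPM in Ctrl, 66.0, 52.1 and 64.7 in cKO and 72.4, 49.0 and 47.1 in dcKO. The 6 mutant embryos lay above the 3 Ctrl embryos. Its mean was 37.4 ± 6.69 CPM in Ctrl, 60.9 ± 7.65 in cKO and 56.2 ± 14.1 in dcKO (SD, n = 3). On the log2 scale the difference was 0.70 (SE 0.23, edgeR adjusted p = 0.0866) in cKO and 0.59 (SE 0.22, adjusted p = 0.12) in dcKO, each with an exact permutation p of 0.1. DESeq2 gave an adjusted p-value of 0.0416 in cKO and 0.104 in dcKO, and since the fold change was under the limit it was not a call. Emc3, a membrane protein insertase gene 30 bases away in the opposite direction, had log2 fold changes of 0.25 and 0.33. Fancd2os shares 257 exon bases with Fancd2 on the other strand, with the same limit. The reads counted to Fancd2os were 0 to 10 in an embryo, against 707 to 2607 for Fancd2.

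**Figure D2:**
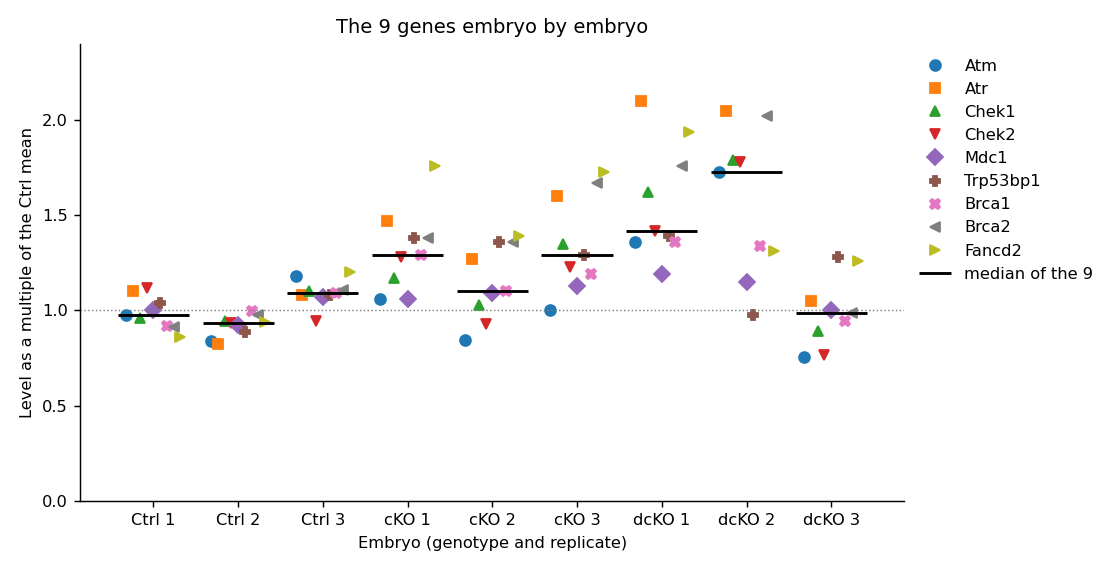
Level of each of the 9 genes in each embryo as a multiple of the mean of the 3 Ctrl embryos (linear axis from 0), with the median of the 9 genes as a line. The line is at 1.42 and 1.73 in dcKO replicates 1 and 2 and at 0.987 in dcKO replicate 3, and Trp53bp1 is near 1 in replicate 2.

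Read by embryo, most of the 9 genes moved together, Trp53bp1 and Fancd2 less so, and the dcKO embryos were unequal. The median over the 9 genes, as a multiple of the Ctrl mean, was 0.978, 0.936 and 1.09 in the Ctrl embryos. It was 1.29, 1.10 and 1.29 in cKO and 1.42, 1.73 and 0.987 in dcKO. In cKO replicates 1, 2 and 3, 7, 6 and 8 of the 9 genes lay above every Ctrl embryo, beside 40.7%, 39.6% and 40.1% of all genes tested. In dcKO replicates 1, 2 and 3 these counts were 9, 8 and 2, beside 44.2%, 46.2% and 40.8%. In replicate 3, 3 of the 9 genes (Atm, Chek1 and Chek2) lay below every Ctrl embryo, as did 36.2% of all genes. Among the 9 genes, without dcKO replicate 3 the median log2 fold change in dcKO was 0.68, and without replicate 2 it was 0.33, beside 0.40 with all embryos. Without replicate 3, the edgeR adjusted p-value was under 0.05 for Atr, Brca2 (0.92), Chek1 (0.77), Fancd2 (0.70), Chek2 (0.68), Atm (0.63) and Brca1 (0.43), with the log2 fold change in brackets, and not for Mdc1 or Trp53bp1. These 7 of the 9 stand beside 25.3% of all genes that were higher at that limit in the same fit. Without replicate 2 the lowest adjusted p-value was 0.0618, for Trp53bp1 at 0.42. In that fit the log2 fold change was 0.08 for Atm and 0.13 for Chek2, beside 0.36 and 0.40 with all embryos. Within pairs that share the number in the embryo code, the median log2 ratio was 0.21 for cKO replicate 2 over Ctrl replicate 1 (7 of 9 genes above 0) and 0.51 for cKO replicate 3 over Ctrl replicate 2 (9 of 9). It was -0.17 for dcKO replicate 3 over Ctrl replicate 3 (2 of 9).

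Trp53bp1 stood apart from Atm, Chek1 and Chek2 in the dcKO embryos. In dcKO replicate 2, Trp53bp1 was at 0.975 times the Ctrl mean, Mdc1 at 1.15, Fancd2 at 1.31 and Brca1 at 1.34, while Brca2 was at 2.02 and Atr at 2.05. In dcKO replicate 3, Trp53bp1 was at 1.28, Fancd2 at 1.26 and Atm at 0.757. Over the 9 embryos, Pearson's r of log2 CPM was highest for Chek1 with Brca2 (0.938), Atr with Brca2 (0.931) and Atr with Chek1 (0.93). It was lowest for Atm with Trp53bp1 (-0.14), Chek2 with Trp53bp1 (-0.034) and Chek1 with Trp53bp1 (0.114). For Fancd2 it ran from 0.32 with Atm to 0.802 with Brca1. These are descriptions over 9 embryos that share genotypes, depth and base composition.

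Among the 13679 other tested genes, 2 were picked for each of the 9 by the highest r of log2 CPM over the 9 embryos. Fam91a1 (r = 0.988) and Ubn2 (0.982) were nearest to Atm. Ktn1 (0.994) and Txndc9 (0.989) were nearest to Atr. Chek1 was nearest to Eif3e (0.99) and Zmym4 (0.989), and Chek2 to Nudt4 (0.98) and Timm29 (0.973). For the adaptors they were Virma (0.967) and Sh3gl3 (0.963) with Mdc1, and Ddx25 (0.989) and Klf8 (0.987) with Trp53bp1. Brca1 was nearest to Psma5 (0.986) and Mettl18 (0.984), Brca2 to Cep70 and Eif2a (both 0.986), and Fancd2 to Aimp1 (0.99) and Sec23b (0.987). With 9 embryos and this many genes, high values of r are found for each gene.

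In the comparison of loss of Trp53 on top of Cnot3 with loss of Cnot3 alone, none of the 9 genes was called, and the intervals were wide. In dcKO against cKO the log2 differences ran from -0.14 for Trp53bp1 to 0.40 for Atm, with edgeR adjusted p-values of at least 0.889. Without dcKO replicate 3 the adjusted p-value was under 0.05 for 3 of the 9, Atm (0.67), Chek1 (0.53) and Atr (0.52), with the log2 difference in brackets, beside 13.3% of all genes that were higher. With the number in the embryo code as a block, where dcKO rests on replicate 3, the 9 differences were below 0. There the adjusted p-value was under 0.05 for 3 of the 9 that were lower, Brca2 (-0.85), Fancd2 (-0.72) and Atm (-0.67), beside 5.1% of all genes lower. In dcKO against Ctrl that block gave 1 of the 9 lower, Atm at -0.65 (adjusted p = 0.00904), beside 1710 of the 13680 genes. The 95% interval of the difference was -0.21 to 1.01 for Atm, -0.33 to 0.85 for Atr and -0.26 to 0.83 for Chek1. It was -0.30 to 0.35 for Mdc1, the narrowest, and -0.37 to 0.42 for Brca1. For Fancd2 it was -0.61 to 0.38 and for Trp53bp1 -0.52 to 0.24, so a change in either direction stays within these bounds. Groups without overlap were found for 0 of the 9 genes in this comparison, and 2.62% of all genes lay wholly higher and 3.63% wholly lower.

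**Figure D3:**
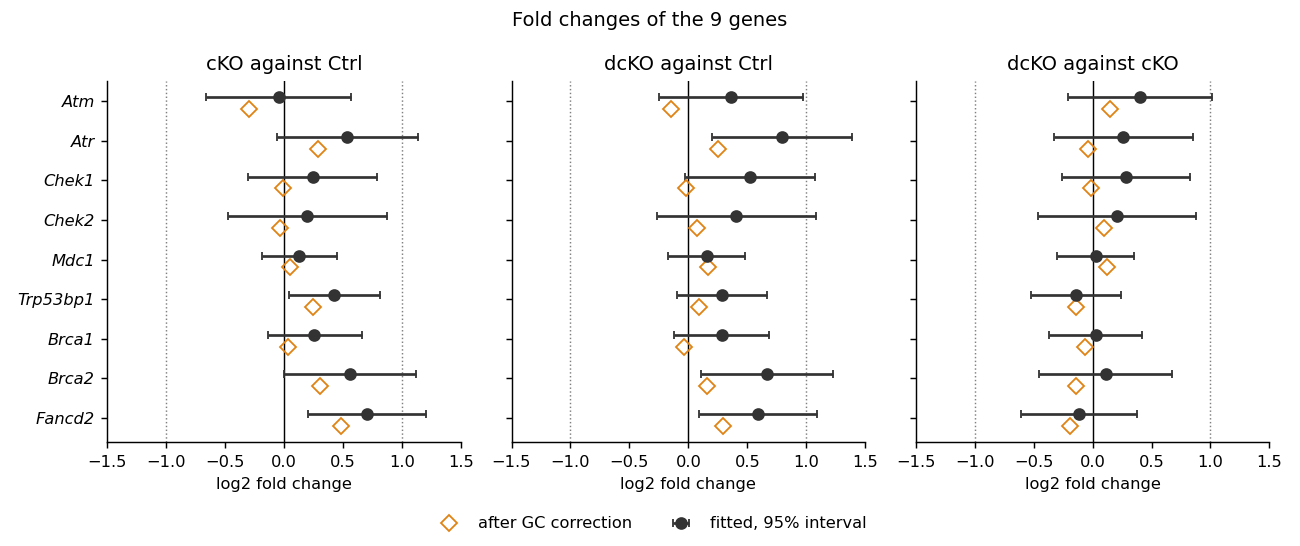
Fitted log2 fold change of the 9 genes with its 95% interval (filled points and bars) and the value after a correction for GC content (open diamonds) in the 3 comparisons, with dotted lines at the fold limit of 1 and -1. No filled point passes the limit, and the diamonds lie nearer to 0 than the points for most genes in cKO and dcKO against Ctrl.

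Base composition moved with these fold changes. The longest coding transcripts of the 9 genes held 40.8% to 51.0% GC (median 46.2%), and 8 of the 9 were below the median of 49.8% over the tested genes. At the third codon position 9 of 9 were below the median of 60.4%, with a range of 35.5% to 54.2%. They were also long, from 2276 bases in Chek2 to 10724 in Brca2, and 1 of the 9 was under the median of 3106 bases. Over all tested genes, the quintile with the lowest GC had a median log2 fold change of 0.21 in cKO and 0.54 in dcKO, and the quintile with the highest GC had -0.49 and -0.56. In the 3 lower quintiles stood 4, 3 and 2 of the 9 genes, and 0 in the 2 upper quintiles.

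The 9 genes and the genes of low GC also moved together embryo by embryo. Against the Ctrl mean, the median log2 ratio of the lowest GC quintile was 0.58, 0.86 and -0.12 in dcKO replicates 1, 2 and 3, and that of the 9 genes was 0.50, 0.79 and -0.02. In cKO replicates 1, 2 and 3 it was 0.20, 0.14 and 0.24 for the lowest GC quintile and 0.37, 0.14 and 0.37 for the 9 genes. With a correction of each embryo for GC content, the median log2 fold change of the 9 genes was 0.05 in cKO and 0.09 in dcKO. The corrected values were 0.48 for Fancd2 (edgeR adjusted p = 0.076), 0.30 for Brca2 and 0.29 for Atr in cKO. In dcKO they were 0.29 for Fancd2, 0.25 for Atr and 0.16 for Brca2. Chek1 went to -0.01 in cKO and -0.02 in dcKO, and Atm to -0.30 and -0.15.

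**Figure D4:**
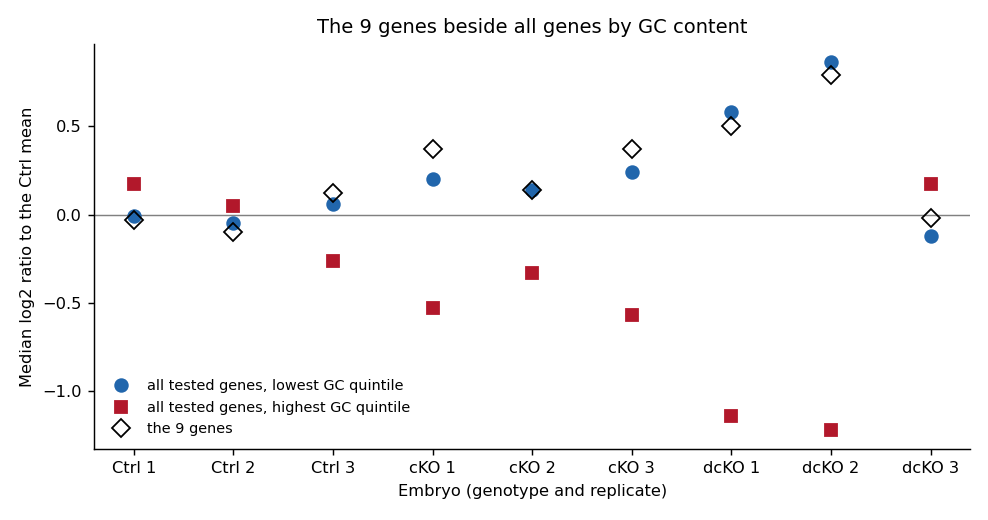
Median log2 ratio to the Ctrl mean in each embryo, for the quintile of tested genes with the lowest GC content (circles, 2713 genes), the quintile with the highest (squares, 2710 genes) and the 9 genes (diamonds). The diamonds follow the circles, from -0.02 in dcKO replicate 3 to 0.79 in dcKO replicate 2, where the squares fall to -1.22.

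Markers of cell types also differed between groups, and their part in the results was not tested. The sum of 12 cycling cell markers was 4563 to 5152 CPM in Ctrl and 4596 to 5221 in cKO. It was 5642, 6157 and 4493 in dcKO replicates 1, 2 and 3, the same order as the median of the 9 genes. Of the 12 markers, 6 had that order, while 3 were highest in replicate 1 and 3 in replicate 3. Sums of 6 neuron markers were 1304 to 1700 CPM in Ctrl, 945 to 1260 in cKO and 789 to 1618 in dcKO. In dcKO the sums were below every Ctrl embryo for 6 red blood cell markers (4461 to 6333 against 7235 to 11050 CPM), 3 endothelial markers (75.3 to 83.3 against 108.6 to 146.9), 4 meningeal markers (143 to 229 against 339 to 382) and 4 microglial markers (12.9 to 29.2 against 32.9 to 41.2). The meningeal sum was below every Ctrl embryo in cKO too (194 to 321 CPM). The sum of 3 markers of choroid plexus and hem was 57.7 to 75.6 CPM in Ctrl, 62.4, 138 and 186 in cKO and 88.6 to 191 in dcKO. Of these, Ttr had 0 reads in the 3 Ctrl embryos and 134 to 2050 in the mutant embryos. None of the markers was at 0 in all 9 embryos. In such bulk tissue, a change in the share of a cell type and a change of RNA per cell cannot be told apart.

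Levels of the 9 genes per kb of the longest coding transcript put the adaptors and Chek1 highest in Ctrl. Mdc1 had 27.2 ± 2.01 CPM per kb, above Trp53bp1 (23.0 ± 2.29) and Chek1 (20.1 ± 1.70), whose Ctrl ranges overlapped each other. Brca1 followed at 12.8 ± 1.08, then Atm at 9.50 ± 1.65 and Chek2 at 9.21 ± 0.957, which also overlapped. Fancd2 (6.78 ± 1.21), Atr (4.67 ± 0.721) and Brca2 (4.05 ± 0.412) were lowest by mean, and the ranges of Atr and Brca2 overlapped (SD, n = 3 for each). The range of Fancd2 also overlapped that of Atm, with 8.15 in Ctrl replicate 3 against 7.96 for Atm in Ctrl replicate 2. Of the tested genes, 77.6% had a lower level per kb than Mdc1 and 30.9% a lower one than Brca2. By mean in cKO, Trp53bp1 stood above Mdc1 (30.9 ± 1.00 against 29.7 ± 0.896), and Fancd2 at 11.1 ± 1.39 stood above Chek2 at 10.5 ± 1.75 and Atm at 9.22 ± 1.07. The cKO ranges of Trp53bp1 and Mdc1 overlapped, as did those of Fancd2 with Chek2 and Atm. The annotated exons of Atr sum to 23629 bases, against 8102 in its longest coding transcript, so its level per kb depends on the gene model.

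Of 63 partner genes of the pathway listed in 8 roles, 62 were tested. In cKO 43 of the 62 had a fold change above 0 (median 0.19), beside 50.7% of all genes (median 0.01). In dcKO 49 did (median 0.38), beside 56.9% of all genes (median 0.11). edgeR called 0 in each comparison, with 16 higher and 6 lower in cKO at an unadjusted p-value under 0.05 and 21 and 3 in dcKO. Over all genes the shares at that limit were 15.3% higher and 11.7% lower in cKO and 18% and 11.2% in dcKO. DESeq2 called 3 higher and 1 lower in cKO and 2 higher and 1 lower in dcKO, beside 8.82% and 8.46% of all genes in either direction. Without dcKO replicate 3 edgeR called 12 of the 62 in dcKO (19.4%, beside 23.6% of all genes), 4 in cKO (6.45%, beside 10.7%) and 1 in dcKO against cKO (1.61%, beside 9.01%). Without dcKO replicate 2 it called 6 in dcKO (9.68%, beside 9.81%) and 4 in cKO (beside 8.45%), and without dcKO replicate 1 it called 4 in cKO (beside 6.71%). In dcKO against cKO both tools called 0 with all embryos, and the median log2 difference was 0.14.

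H2ax, the histone variant whose phosphorylated form MDC1 binds, was called lower in both mutants by DESeq2. It had 280.5, 245 and 207 CPM in Ctrl, 95.5, 99.2 and 115 in cKO and 58.7, 128 and 134 in dcKO. Every mutant embryo was below every Ctrl embryo, where 28% of all genes lay wholly below Ctrl in cKO and 11.2% in dcKO. Its fold changes on the log2 scale were -1.24 in cKO and -1.19 in dcKO (DESeq2 adjusted p = 0.00205 and 0.00277, edgeR adjusted p = 0.0514 and 0.0511).

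Abraxas1 and Rad51b were called higher in both mutants by DESeq2. Abraxas1, the scaffold that brings BRCA1 to ubiquitylated chromatin, had 10.6, 9.08 and 11.3 CPM in Ctrl, 21.5, 18.9 and 23.6 in cKO and 29.2, 15.7 and 22.5 in dcKO. It had log2 fold changes of 1.05 in cKO and 1.12 in dcKO (DESeq2 adjusted p = 0.00415 and 0.00232, edgeR adjusted p = 0.0575 and 0.0511). Rad51b, from the list of recombination mediators, had 6.73, 7.98 and 7.97 CPM in Ctrl, 19.5, 17.3 and 19.2 in cKO and 25.3, 9.55 and 16.7 in dcKO. It had log2 fold changes of 1.30 and 1.18 (DESeq2 adjusted p = 0.00408 and 0.0107, edgeR adjusted p = 0.0575 and 0.0633). Both genes lay above Ctrl in 6 of 6 mutant embryos, where 29.2% of all genes lay wholly above Ctrl in cKO and 15.6% in dcKO. For each, dcKO replicate 2 was the lowest mutant embryo.

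End joining genes, which religate broken ends without a template, had the highest median of the 8 roles. The 7 genes had fold changes above 0 in both mutants, with medians of 0.80 in cKO and 0.76 in dcKO. Of these, 5 were higher at an unadjusted edgeR p-value under 0.05 in each, beside 15.3% and 18% of all genes. Nhej1, the end bridging factor XLF, had 5.46, 4.71 and 6.85 CPM in Ctrl, 10.2, 13.9 and 12.9 in cKO and 9.44, 6.62 and 11.5 in dcKO. DESeq2 called it in cKO (log2 fold change 1.12, adjusted p = 0.00465; edgeR adjusted p = 0.0622) and not in dcKO (0.69, adjusted p = 0.107). Xrcc4, the ligase partner, had log2 fold changes of 1.00 in cKO and 0.88 in dcKO, and Lig4, the ligase itself, of 0.05 and 0.13.

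In the MRN complex that senses breaks, Nbn had the highest mean of both mutants, at 0.53 and 0.66, and Mre11a the lowest, at 0.27 and 0.37. The 3 genes of the complex lay above Ctrl without overlap in both mutants, as did 29.2% of all genes in cKO and 15.6% in dcKO. The 11 genes of ATR activation had medians of 0.07 and 0.24. Among them 2 subunits of the 9-1-1 clamp stood at opposite ends, with Rad1 at 0.70 and 0.96 and Rad9a at -0.88 and -0.60. DESeq2 gave Rad1 adjusted p-values of 0.0417 and 0.00438 and Rad9a 0.0167 and 0.105, without a call. Shld2, a shieldin subunit that acts with 53BP1, had the highest mean of both mutants in the chromatin response, at 0.60 and 0.66.

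Recombination mediators had medians of 0.20 and 0.36, with Xrcc3 lowest at -0.61 and -0.40. For the complexes of BRCA1 the medians were 0.22 and 0.54, and Babam1 was lowest at -0.44 and -0.27. The Fanconi genes, which act with FANCD2, had medians of 0.14 and 0.44. Fancl, the E3 ligase that ubiquitylates FANCD2, had the highest mean of both mutants at 0.75 and 1.00, and the core complex gene Fance the lowest at -0.88 and -0.61. Of the checkpoint outputs, Cdc25c was highest at 0.29 and 0.39 and Cdc25a lowest at -0.54 and -0.25. Of these, Xrcc3, Babam1, Fancl, Fance, Cdc25c and Cdc25a, none was called in either mutant by edgeR or DESeq2.

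**Figure D5:**
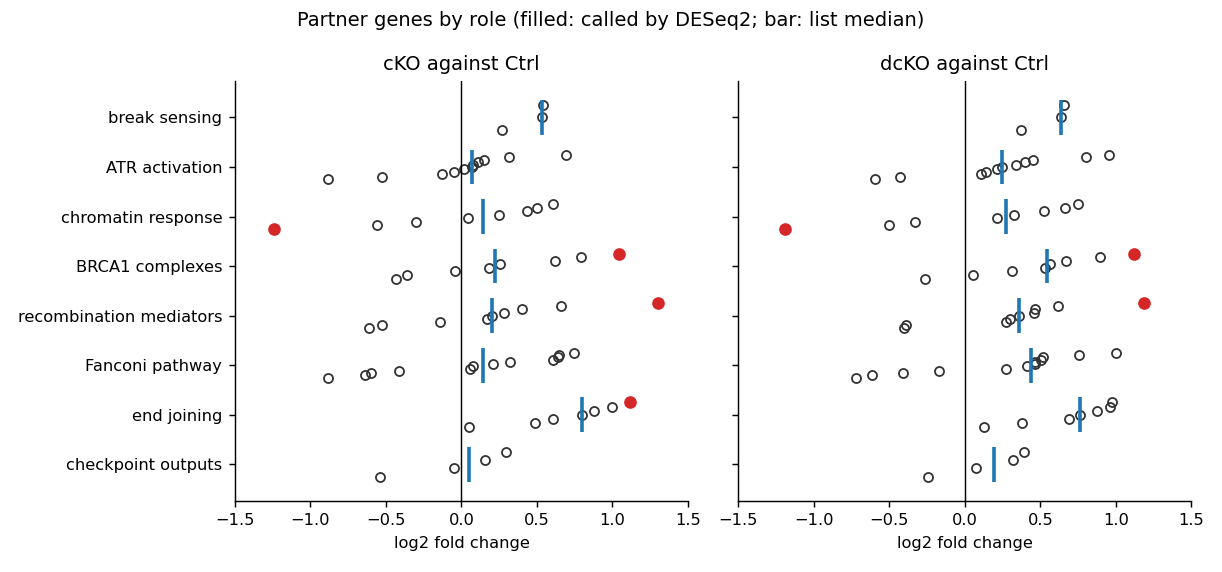
Log2 fold change of 62 partner genes in cKO (left) and dcKO (right) against Ctrl, 1 point a gene in rows by role, with the list median as a bar and genes called by DESeq2 filled. H2ax is filled at -1.24 and -1.19, and the end joining genes all stand right of 0.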

How the data were processed

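Poly(A) RNA of the cortex of single embryos was sequenced from stranded libraries. Per the labels and the study's methods, the authors used Cutadapt for trimming, STAR for alignment to mm39 and featureCounts for gene counts, and they deposited the raw counts for 57010 genes without normalization. Versions and the strand setting are not given in the sources used here.

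The 13680 genes that had over 10 reads in each embryo were tested in R 4.3.3 with edgeR 4.0.16 (TMM, quasi-likelihood test, no covariates, Benjamini-Hochberg adjustment) with a call at an adjusted p-value under 0.05 and a log2 fold change beyond 1 in either direction. DESeq2 1.42.0, which the study used, and limma 3.58.1 voom were alternatives. Because embryos are separate animals, p-values measure the spread between animals, with 3 per genotype. With the number in the embryo code as a block, that spread does not include dcKO, which rests on replicate 3 alone. The exact two-sided permutation test compared mean CPM. The scripts were tested on simulated data. Standard errors were derived from edgeR's F statistic.

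Identifiers of 52029 genes matched GENCODE M21 (GRCm38), which gave coordinates, length and GC content, since mm39 annotation was not used here. The GC correction used loess offsets per embryo (span 0.3). Promoters came from RefSeq (GRCm38.p6), read with Python 3.11.15 and pandas 2.3.3, and figures were drawn with matplotlib 3.10.9.

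The members and lists were chosen with earlier results of these data known. Named partners are those with the highest and lowest mean log2 fold change of both mutants in each role, and those called by edgeR or DESeq2. Similar genes are the 2 with the highest Pearson r of log2(CPM + 0.5). Of 63 partners 62 matched, without Shld3.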

Additional observations from a re-analysis of the deposited data

How the results depend on the processing

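For the 9 genes, 0 called was the count in cKO and in dcKO against cKO under every alternative run. In dcKO 1 (Atr) was called with limma voom and its sample weights (log2 fold change 1.09), beside 26.8% of all genes. The count was also 1 (Atr) in dcKO without dcKO replicate 3, beside 23.6% of all genes. Leaving out an embryo gave 0 to 1 in dcKO. The median log2 fold change of the 9 genes ran from 0.245 to 0.329 in cKO, 0.325 to 0.679 in dcKO and -0.003 to 0.361 in dcKO against cKO over single embryos left out. Partner calls ran from 0 to 4, 0 to 12 and 0 to 1 there.

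Partner genes called in cKO and dcKO were 4 and 3 with DESeq2, 5 and 17 with voom, and 2 and 1 without a filter on low counts. There were 2 in cKO and 0 in dcKO with the GC correction, and 4 and 0 with only the 6 embryos compared. Over all genes, edgeR called 2 in cKO, 0 in dcKO and 2 between the mutants, against 1206, 1157 and 52 with DESeq2, 1868, 3668 and 27 with voom, 813, 692 and 8 without a filter, and 733, 246 and 9 with the GC correction. With only the 6 embryos compared it called 1850 in cKO and 0 between the mutants. In edgeR with all embryos, RLE factors, filterByExpr and the absence of a fold limit each gave 0 of the 9 genes.

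With the GC correction the median of the 9 genes in cKO was 0.051. Chek1 turned to -0.009 and Chek2 to -0.036 in cKO. In dcKO Atm turned to -0.152, Chek1 to -0.019 and Brca1 to -0.035. Between the mutants Atr turned to -0.036, Chek1 to -0.01, Brca1 to -0.064 and Brca2 to -0.135. Voom turned Atm in cKO to 0.098 and Fancd2 between the mutants to 0.117. Without a filter, Mdc1 and Brca1 between the mutants were -0.011 and -0.012. None of these values was called.

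Deviations from the genotype means correlated with a mean r of -0.181 over 9 pairs with the same replicate number. Over 18 pairs with different numbers the mean r was 0.089, so the replicate number does not pair the embryos. For pairs that share the number in the embryo code, r was 0.22 for Ctrl replicate 1 and cKO replicate 2. It was -0.02 for Ctrl replicate 2 and cKO replicate 3, and -0.58 for Ctrl replicate 3 and dcKO replicate 3. Sharing that number thus did not go with like deviations in every pair. The replicate block called 0 of the 9 genes, with medians of 0.251, 0.371 and 0.091 in the 3 comparisons, and 0 of all genes in cKO and between the mutants. With the GC correction and the replicate block, the median in cKO was 0.051. In that fit Chek1 and Chek2 in cKO were -0.011 and -0.025. Atm, Chek1 and Brca1 in dcKO were -0.146, -0.017 and -0.036. Atr, Chek1, Brca1 and Brca2 between the mutants were -0.039, -0.005, -0.064 and -0.131. It called 4 genes in cKO and 6 between the mutants.

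With the number in the embryo code as a block, dcKO rests on dcKO replicate 3 and Ctrl replicate 3 alone, and cKO on 2 pairs. The median of the 9 genes was then -0.171 in dcKO and -0.604 between the mutants. Partner calls were 7 in cKO. Atm in cKO was 0.021. In dcKO the log2 fold changes were -0.645 for Atm, -0.043 for Atr, -0.296 for Chek1, -0.305 for Chek2, -0.102 for Mdc1, -0.204 for Brca1 and -0.171 for Brca2. Between the mutants they were -0.667, -0.624, -0.604, -0.362, -0.305, -0.464 and -0.847 in the same order. With no fold limit, adjusted p-values under 0.05 were found for 5 of the 9 genes in cKO (higher). This block called 1986 genes of all in cKO. Counts for dcKO are not given, since p-values there would hold no spread between dcKO embryos.

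Without single embryos, Atm in cKO ran from -0.16 to 0.093. Between the mutants Chek2 ran from -0.065 to 0.486, Mdc1 from -0.024 to 0.095, Brca1 from -0.063 to 0.178 and Brca2 from -0.097 to 0.361. The cause of these shifts was not tested. With 3 embryos a genotype the SE in cKO was 0.15 to 0.30 for the 9 genes, and the fold limit leaves a change under 2-fold uncalled.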
